A study of Mus musculus with 12 samples.

Results

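The 6 genes here serve dopamine and histamine neurons of the hypothalamus, and several serve other cells too: Th, Ddc, Slc18a2, Slc6a3, Drd2 and Hdc. They were chosen by symbol, and each was read through its probe set with a single gene symbol. All 6 were found among the 19938 genes of the array, each with 1 such probe set, and all 6 were among the 14953 genes bright enough to be tested, with a mean log2 signal of at least 5.81. Hypothalamic RNA came from male C57BL/6J mice, 23 weeks old, that had eaten a diet with 45% fat for 20 weeks from the age of 3 weeks. Every mouse first received DMSO by intraperitoneal injection for 4 days. It then received for another 4 days a daily injection of DMSO (the vehicle control), of celastrol at 100 µg/kg or of withaferin A at 2 mg/kg, with 4 arrays per group and 12 in all. Celastrol is a pentacyclic triterpenoid and withaferin A a steroidal lactone; both are plant compounds known to lower food intake in obese mice, and their doses differed. The labels call the arrays of a group biological replicates, do not say whether an array held 1 mouse or a pool, and name no lean or untreated group.

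Dopamine is made from tyrosine in 2 steps, by tyrosine hydroxylase and then aromatic L-amino acid decarboxylase, is loaded into vesicles by the vesicular monoamine transporter VMAT2 and is taken back into the neuron by the dopamine transporter. In the hypothalamus, dopamine neurons of the arcuate nucleus release dopamine toward the pituitary, where it restrains prolactin secretion through the D2 receptor. Histamine is made from histidine by histidine decarboxylase in neurons of the tuberomammillary nucleus, which promote wakefulness and reduce feeding; these neurons also use VMAT2.

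The promoters of Th, Slc18a2, Slc6a3 and Hdc are shown because the first 3 of these genes varied together from array to array and Hdc followed them less closely. Each sequence runs from 250 bases before the RefSeq transcript start to 10 bases after it (GRCm38.p6), and capitals mark the motifs TGACGTCA, AAAGGTCA or GGGCGG on either strand.
Th, chr7:142899986-142900245, minus strand: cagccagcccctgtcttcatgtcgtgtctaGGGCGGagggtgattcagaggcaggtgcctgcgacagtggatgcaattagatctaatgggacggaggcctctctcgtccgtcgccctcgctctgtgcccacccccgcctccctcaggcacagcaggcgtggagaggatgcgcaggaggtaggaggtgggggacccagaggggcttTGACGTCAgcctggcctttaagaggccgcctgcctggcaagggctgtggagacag
Slc18a2, chr19:59260628-59260887, plus strand: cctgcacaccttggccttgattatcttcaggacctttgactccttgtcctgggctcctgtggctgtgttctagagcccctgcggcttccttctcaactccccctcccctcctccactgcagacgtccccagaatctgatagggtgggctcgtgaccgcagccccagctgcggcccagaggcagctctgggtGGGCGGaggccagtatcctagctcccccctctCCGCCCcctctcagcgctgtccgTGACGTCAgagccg
Slc6a3, chr13:73536497-73536756, plus strand: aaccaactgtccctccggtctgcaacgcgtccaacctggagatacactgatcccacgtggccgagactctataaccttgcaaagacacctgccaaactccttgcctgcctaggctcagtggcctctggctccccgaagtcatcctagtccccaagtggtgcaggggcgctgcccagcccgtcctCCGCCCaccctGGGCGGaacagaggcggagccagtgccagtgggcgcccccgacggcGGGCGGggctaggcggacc
Hdc, chr2:126618669-126618928, minus strand: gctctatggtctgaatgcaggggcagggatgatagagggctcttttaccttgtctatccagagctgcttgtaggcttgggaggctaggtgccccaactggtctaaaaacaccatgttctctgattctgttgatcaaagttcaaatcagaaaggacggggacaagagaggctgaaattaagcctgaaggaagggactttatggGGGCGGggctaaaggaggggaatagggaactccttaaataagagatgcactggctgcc

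The motif searches used the whole 300-base window of each promoter, and all 6 genes had at least 1 window (7 in all, 2 of them for Ddc). TGACGTCA, the palindromic cyclic AMP response element, was present in the windows of Th, 45 bases before the start, and of Slc18a2, where it began 4 bases before the start and spanned it. It was not in the windows of the other 4 genes, and 1.79% of the 32851 windows held it. AAAGGTCA, the element bound by Nr4a2 and its relatives, was found in 1 of the Ddc windows and in none of the other 6 windows, against 1.51% of all windows. GGGCGG, the GC box, occurred in 5 of the 6 genes, all but Ddc, and in 35.7% of all windows. No motif overlapped another in the sequences shown. A match describes the letters of the window and does not show that a factor was bound.

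Tyrosine hydroxylase, encoded by Th (probe set 10569370), carries out the rate-limiting step of dopamine synthesis. Its log2 signal was 9.66, 10.12, 10.07 and 9.59 on DMSO replicates 1 to 4. It was 9.71, 9.97, 9.70 and 9.77 with celastrol, and 10.40, 10.22, 9.88 and 9.91 with withaferin A. The highest signals were on withaferin A replicates 1 and 2, and all pairs of groups overlapped. The group means were 9.86 ± 0.28 for the vehicle, 9.79 ± 0.12 for celastrol and 10.10 ± 0.25 for withaferin A (SD, n = 4 each).

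Aromatic L-amino acid decarboxylase, the product of Ddc (10384378), makes dopamine and also serotonin. Ddc stood at 8.76, 8.90, 8.86 and 8.69 on the DMSO arrays. It stood at 8.93, 9.12, 8.79 and 8.86 with celastrol and at 9.03, 8.72, 8.73 and 8.57 with withaferin A. The means were 8.80 ± 0.10, 8.93 ± 0.14 and 8.76 ± 0.19 (SD, n = 4 each) in the order DMSO, celastrol and withaferin A. The highest and the lowest arrays belonged to the celastrol and withaferin A groups, and the groups overlapped.

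VMAT2, encoded by Slc18a2 (10464370), fills vesicles with dopamine, histamine, serotonin or noradrenaline. Slc18a2 was 8.82, 9.30, 9.33 and 8.73 with DMSO, so that replicates 2 and 3 lay apart from replicates 1 and 4 as they did for Th. Its values were 9.12, 9.18, 8.94 and 9.08 with celastrol and 9.41, 9.29, 9.05 and 9.11 with withaferin A. The group means were 9.05 ± 0.31, 9.08 ± 0.10 and 9.22 ± 0.16 (SD, n = 4 each), and the groups overlapped.

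The dopamine transporter gene Slc6a3 (10406050), whose product returns released dopamine to the neuron, was the most variable of the 6. Its signal was 8.68, 9.92, 9.55 and 7.50 on the DMSO arrays. It was 9.42, 9.61, 9.0003 and 8.70 with celastrol and 10.16, 10.20, 9.16 and 9.21 with withaferin A. The lowest array, DMSO replicate 4, and the highest, withaferin A replicate 2, differed by 2.70 on the log2 scale, or 6.50-fold, although each group overlapped the others. Its means were 8.91 ± 1.08, 9.18 ± 0.41 and 9.68 ± 0.57 (SD, n = 4 each). The SD within groups, pooled over the 3 groups, was 0.74, the 13th largest of the 14953 tested genes, whose median was 0.11. The same SD was 0.23 for Th, 0.21 for Slc18a2, 0.16 for Hdc, 0.15 for Ddc and 0.14 for Drd2, at the 95.9th, 94.4th, 81.1st, 76.8th and 75.0th percentiles of tested genes.

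The D2 receptor gene Drd2 (10585169) is expressed by dopamine neurons as an autoreceptor, by their target neurons and by prolactin cells of the pituitary. It had 9.35, 9.55, 9.63 and 9.37 with DMSO. It had 9.59, 9.71, 9.64 and 9.54 with celastrol and 9.71, 9.82, 9.38 and 9.52 with withaferin A. The celastrol arrays lay closest together, within the upper part of the DMSO range or just above it. The means were 9.47 ± 0.14, 9.62 ± 0.072 and 9.61 ± 0.19 (SD, n = 4 each).

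Histidine decarboxylase, encoded by Hdc (10487238), is the only enzyme of histamine synthesis. Hdc was 9.10, 9.25, 9.45 and 9.22 with DMSO. It was 9.07, 9.36, 8.86 and 9.23 with celastrol and 9.13, 9.21, 9.08 and 9.004 with withaferin A. The highest array was DMSO replicate 3 and the lowest was celastrol replicate 3, and the groups overlapped. The means were 9.25 ± 0.15, 9.13 ± 0.22 and 9.11 ± 0.086 (SD, n = 4 each).

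**Figure D1:**
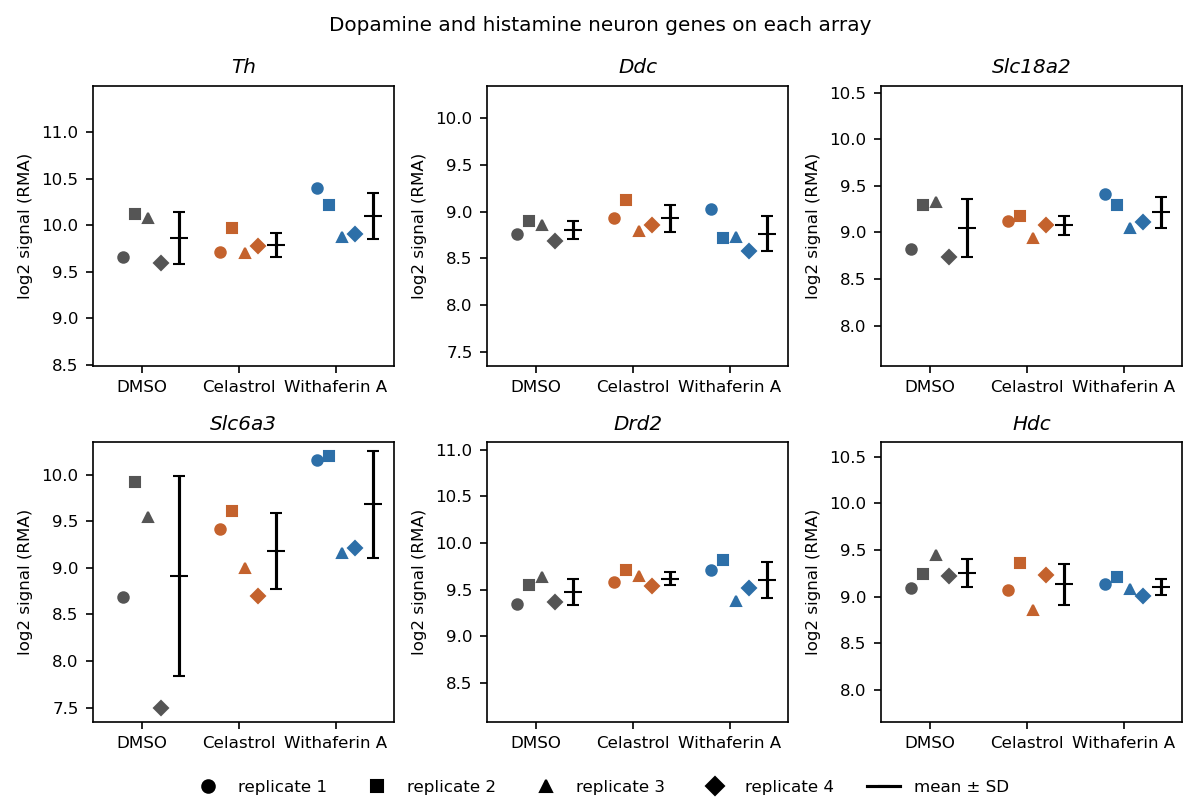
Log2 signal (vertical axis, RMA values) of the 6 genes on each of the 12 arrays, by group; symbols mark replicate numbers, bars the mean ± SD of 4 arrays, and every panel spans 3 log2 units. Slc6a3 runs from 7.50 to 10.20, while no other gene spans more than 0.80.

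Celastrol and DMSO were compared to find whether these neurons' transcripts differed after the compound. Among the 6 genes, 0 had an adjusted p under 0.05 in limma (Benjamini-Hochberg over all tested genes), where 0.769% of tested genes did (0.455% higher and 0.314% lower with celastrol), and 0 had an unadjusted p under 0.05, against 10.4% of tested genes. The largest difference was that of Slc6a3, at 0.27 ± 0.43 (SE, n = 4 per group), with a 95% interval from −0.66 to 1.20 and adjusted p = 0.886. Drd2 had 0.15 ± 0.093 (−0.05 to 0.35; adjusted p = 0.648) and Ddc 0.13 ± 0.095 (−0.08 to 0.33; 0.719). Slc18a2 had 0.03 ± 0.13 (−0.25 to 0.31), Th −0.07 ± 0.14 (−0.37 to 0.22) and Hdc −0.12 ± 0.10 (−0.34 to 0.09). The interval of Slc6a3 was the widest of the 6. In whole-tissue RNA, fewer cells of a type and less RNA per cell cannot be told apart.

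After withaferin A, compared with DMSO, 0 of the 6 genes passed in limma, as did 0 of the 14953 tested genes (0%), and 0 of the 6 had an unadjusted p under 0.05, against 15.7% of tested genes. Slc6a3 again had the largest value, 0.77 ± 0.43 (SE, n = 4 per group), or 1.70-fold, with an interval from −0.16 to 1.70 and adjusted p = 0.401. Th had 0.24 ± 0.14 (−0.06 to 0.53; adjusted p = 0.412), Slc18a2 0.17 ± 0.13 (−0.11 to 0.45; 0.541) and Drd2 0.13 ± 0.093 (−0.07 to 0.33; 0.507). Ddc had −0.04 ± 0.095 (−0.24 to 0.17; 0.867) and Hdc −0.15 ± 0.10 (−0.36 to 0.07; 0.49). The Slc6a3 value rested in large part on 1 control array: without DMSO replicate 4 it was 0.30, and without DMSO replicate 2 it was 1.11. The Slc6a3 value of celastrol turned to −0.20 without DMSO replicate 4. Single arrays also moved the other withaferin A values: Th was 0.14 without withaferin A replicate 1, and Slc18a2 0.066 without DMSO replicate 4 and 0.26 without DMSO replicate 3. Drd2 was 0.061 without withaferin A replicate 2 and 0.21 without replicate 3, Hdc −0.082 without DMSO replicate 3, and Ddc −0.13 without withaferin A replicate 1. After celastrol, Hdc was −0.034 without celastrol replicate 3.

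The compounds were also compared with each other, at their different doses and within the same fit. Here 0 of the 6 genes passed, where 0.0468% of tested genes did (0.00669% higher and 0.0401% lower with withaferin A), and 1 of the 6, Th, had an unadjusted p under 0.05, as 16.1% of tested genes did. Th was higher with withaferin A than with celastrol by 0.31 ± 0.14 (SE, n = 4 per group; interval 0.01 to 0.61; unadjusted p = 0.0409 and adjusted p = 0.288 in limma), and the groups overlapped. The exact two-sided permutation test over the 8 arrays gave p = 0.0857 for this difference. Slc6a3 differed by 0.50 ± 0.43 (−0.43 to 1.43), Slc18a2 by 0.14 ± 0.13 (−0.14 to 0.42), Ddc by −0.16 ± 0.095 (−0.37 to 0.04), Drd2 by −0.01 ± 0.093 (−0.21 to 0.19) and Hdc by −0.02 ± 0.10 (−0.24 to 0.19). Without withaferin A replicate 1, Slc18a2 was 0.074 and Ddc −0.25, without celastrol replicate 2 Ddc was −0.098, and without withaferin A replicate 2 Slc6a3 was 0.33. The groups overlapped for all 6 genes in all 3 comparisons, whereas 7.21%, 7.6% and 9.27% of tested genes had groups that did not overlap, in the order of the comparisons above. The smallest p that the exact test can give with 4 arrays against 4 is 0.0286, and it called 0 of the 6 genes in each comparison.

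**Figure D2:**
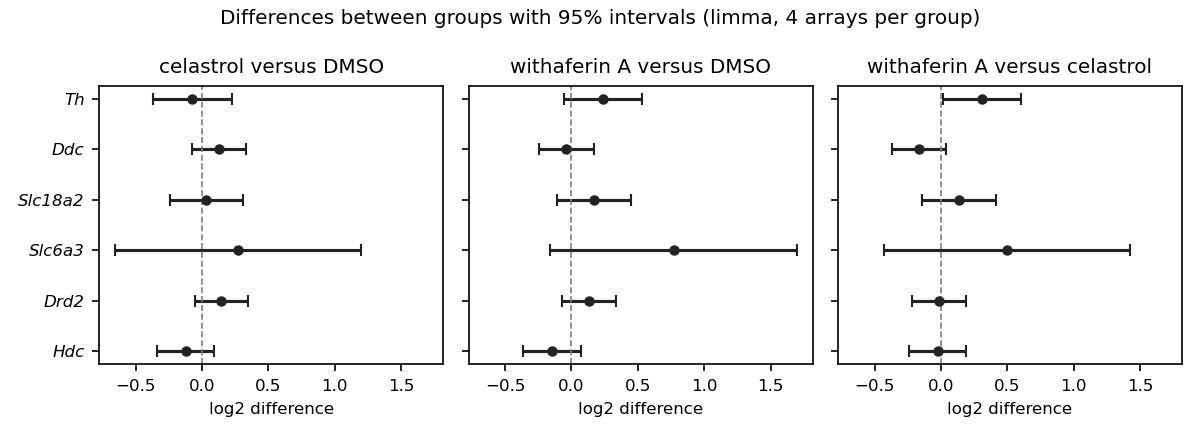
Log2 differences (horizontal axis) of the 6 genes in the 3 comparisons, as points with 95% intervals from limma, 4 arrays per group. The intervals of Slc6a3 are the widest, from −0.16 to 1.70 for withaferin A versus DMSO, and the 1 interval that leaves out 0 is that of Th for withaferin A versus celastrol, from 0.01 to 0.61.

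Although the groups did not separate, several dopamine genes varied together over the 12 arrays. The signals of Th and Slc18a2 had a Pearson r of 0.914 and a Spearman rho of 0.923 (n = 12; two-sided permutation p = 9.0e-05 for each, 0.00121 after adjustment over the 27 relations computed). Those of Slc18a2 and Slc6a3 had r = 0.91 and rho = 0.909 (permutation p = 3.0e-05 and 0.00016, adjusted 0.00081 and 0.00144). Those of Th and Slc6a3 had r = 0.854 and rho = 0.93 (permutation p = 0.00038 and 3.0e-05, adjusted 0.00342 and 0.00081). Without the 2 arrays farthest from the median of the second gene, r was 0.886, 0.886 and 0.877 for these 3 pairs. The permutation tests drew 100000 orders of the arrays.

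Drd2 followed the same arrays less closely. Its r was 0.751 with Slc6a3 (rho 0.804; permutation p = 0.00387 and 0.00264, adjusted 0.0209 and 0.0178), 0.734 with Slc18a2 (rho 0.713; 0.00664 and 0.0115, adjusted 0.0272 and 0.0442) and 0.672 with Th (rho 0.692; 0.0175 and 0.0153, adjusted 0.0525 and 0.0517). Without DMSO replicate 1 and withaferin A replicate 2, these r values were 0.691, 0.647 and 0.535. Ddc had r from 0.363 (with Th) to 0.475 (with Slc18a2) with the other dopamine genes, and Hdc from 0.154 (with Slc6a3) to 0.41 (with Ddc) with the other members, with adjusted permutation p from 0.247 to 0.681 for Pearson's r. Genes on an array share its RNA extract and its normalization, which all of these correlations carry.

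With each group's mean removed, the correlations were 0.94 for Th and Slc18a2, 0.90 for Slc18a2 and Slc6a3, 0.87 for Th and Slc6a3, 0.84 for Th and Drd2, 0.80 for Th and Ddc, and between 0.39 and 0.62 for Hdc with the other 5 genes. These are descriptions over 12 arrays and carry no p. Among the 14953 tested genes Slc18a2 was the gene most like Th by this measure, and Th the gene most like Slc18a2. For Slc18a2 the next was Slc6a3, and for Slc6a3, Slc18a2 ranked 3rd.

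**Figure D3:**
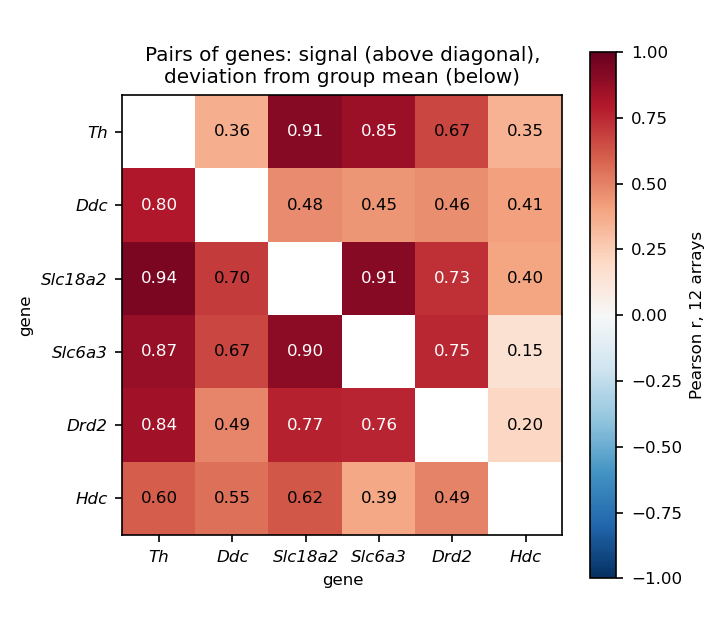
Pearson r for each pair of the 6 genes over 12 arrays, from the signals (above the diagonal) and from deviations from the group means (below it). Th, Slc18a2 and Slc6a3 have values from 0.85 to 0.94 on both sides of the diagonal, and Hdc has the lowest value with Slc6a3, 0.15 above and 0.39 below.

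The 3 tested genes most like each member, by Pearson r of deviations from group means over 12 arrays, were as follows. After Slc18a2, Th was most like Chrnb3 (r = 0.90), a nicotinic acetylcholine receptor subunit expressed by midbrain dopamine neurons, and Vmn2r26 (0.89), a vomeronasal receptor gene. Slc18a2 was also like Stk32b (0.88). Slc6a3 was most like the homeobox genes Pbx3 (0.92) and Irx3 (0.91), with 0.40 and 0.50 when the group means were kept. Drd2 was most like D130040H23Rik (0.96), Cass4 (0.91) and 5930403L14Rik (0.89). Ddc was most like 2310015D24Rik (0.94), Gm1698 (0.91) and the iron reductase gene Cybrd1 (0.90). Hdc was most like C1ql4 (0.92), the transcription factor gene Ebf3 (0.92) and D2hgdh (0.90). With the group means kept, the r values were also lower for 2310015D24Rik (0.40), Cybrd1 (0.59), D2hgdh (0.45), D130040H23Rik (0.61) and Vmn2r26 (0.64). Each such gene was picked from all tested genes for its value, so a high r among them is no result in itself.

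Markers of the neighbouring thalamus had a negative correlation with all 6 genes. The mean log2 signal of 8 thalamus markers spanned 7.79 to 8.93 in the vehicle group, 8.14 to 9.21 after celastrol and 8.02 to 8.97 after withaferin A. Prkcd, a protein kinase C gene of thalamic relay neurons, was 9.87, 8.28, 8.10 and 10.54 on DMSO replicates 1 to 4, so that it was low where Th, Slc18a2 and Slc6a3 were high. Over the 12 arrays the thalamus level had r = −0.777 with Hdc (rho −0.776; permutation p = 0.0022 and 0.0043, adjusted 0.0148 and 0.0232) and −0.733 with Slc18a2 (rho −0.762; 0.00706 and 0.00532, adjusted 0.0272 and 0.0239). It had −0.674 with Th (rho −0.671; adjusted 0.0525 and 0.061), −0.561 with Ddc (−0.531; 0.134 and 0.179), −0.56 with Slc6a3 (−0.566; 0.132 and 0.161) and −0.418 with Drd2 (−0.364; 0.294 and 0.35), also by permutation. Without DMSO replicate 3 and celastrol replicate 3, the r values lay between −0.678 (Slc18a2) and −0.577 (Hdc).

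With group means removed, the correlation with the thalamus level was −0.89 for Slc18a2 and −0.88 for Th, values that 0.0334% and 0.0468% of tested genes reached or passed. It was −0.76 for Hdc, −0.75 for Slc6a3, −0.73 for Ddc and −0.65 for Drd2, reached by 0.482%, 0.562%, 0.722% and 1.96% of tested genes. With the thalamus level held constant as well, the correlation was 0.72 for Th and Slc18a2, 0.76 for Slc18a2 and Slc6a3, 0.66 for Th and Slc6a3, 0.75 for Th and Drd2, 0.56 for Slc18a2 and Drd2, and 0.55 for Slc6a3 and Drd2. The pairs with Ddc came to 0.48 with Th, 0.16 with Slc18a2, 0.26 with Slc6a3 and 0.028 with Drd2, from 0.80, 0.70, 0.67 and 0.49 before the thalamus level was held. Those of Hdc were then −0.23 with Th, −0.20 with Slc18a2, −0.43 with Slc6a3, 0.0047 with Drd2 and −0.0080 with Ddc. All of these are descriptions over 12 arrays.

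**Figure D4:**
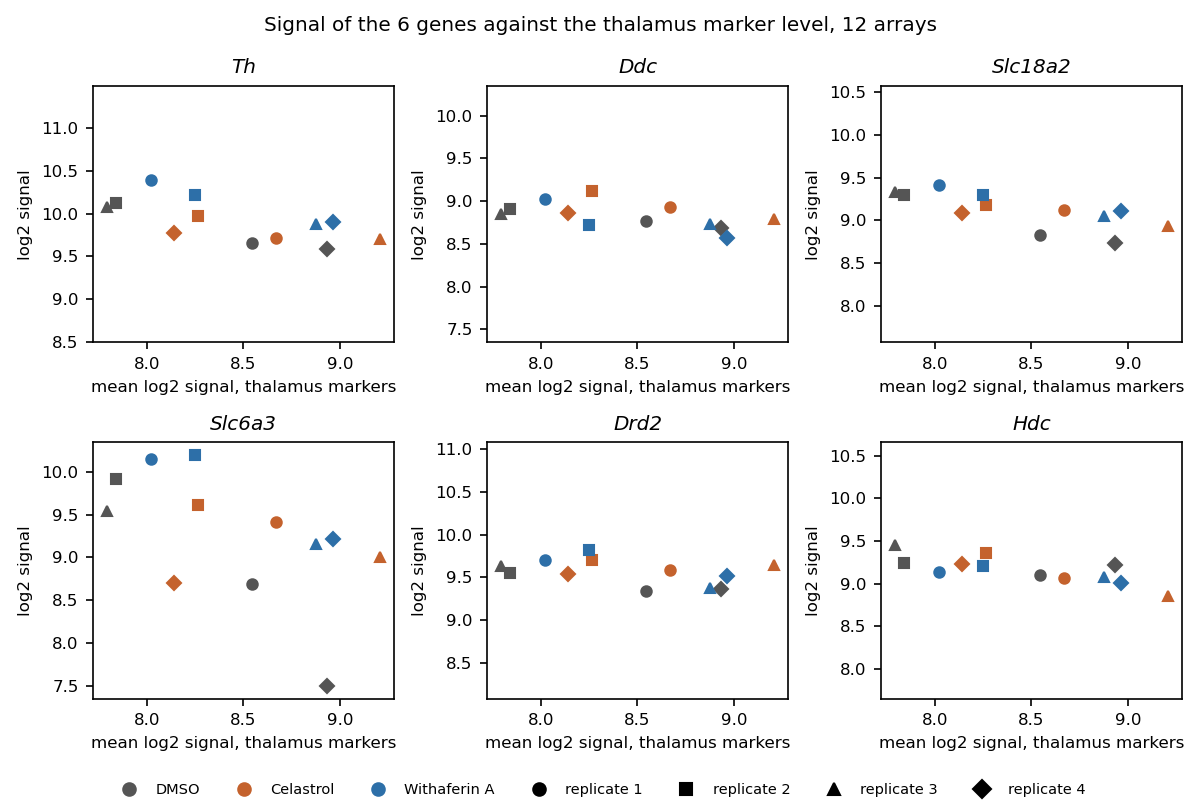
Log2 signal of each of the 6 genes (vertical axis) against the mean log2 signal of 8 thalamus markers (horizontal axis) on 12 arrays; colours mark groups and symbols replicate numbers. Th, Slc18a2 and Hdc slope downward, and Slc6a3 on DMSO replicate 4, at 7.50, lies lowest at a thalamus level of 8.93.

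A fit with the thalamus level as a covariate, chosen after the data were seen, gave larger differences for 4 of the 6 genes in withaferin A versus DMSO, and smaller ones for Hdc and Ddc. Th had 0.34 ± 0.079 (SE, n = 4 per group; unadjusted p = 0.000974 and adjusted p = 0.171 in limma). Slc18a2 had 0.26 ± 0.074 (0.00355 and 0.177) and Slc6a3 1.05 ± 0.31 (0.00474 and 0.185). Drd2 had 0.18 ± 0.080 (adjusted p = 0.295), Hdc −0.09 ± 0.076 (0.588) and Ddc 0.02 ± 0.076 (0.931), which turned its sign. For withaferin A versus celastrol Th had 0.29 ± 0.077 (unadjusted p = 0.00221 and adjusted p = 0.142 in limma). In this fit for celastrol versus DMSO, Ddc had 0.19 ± 0.076 (unadjusted p = 0.029 and adjusted p = 0.384 in limma) and Drd2 0.20 ± 0.081 (0.0294 and 0.386). Slc6a3 had 0.60, Slc18a2 0.14, Th 0.04 and Hdc −0.05. None of the 6 genes passed in this fit in any comparison. Of all tested genes, 99 passed in it for celastrol versus DMSO, 4 for withaferin A versus DMSO and 6 between the compounds. Without the covariate, 7 of the 8 thalamus markers had a positive difference after celastrol (median 0.22) and 8 of 8 after withaferin A (median 0.18). Of the 14953 tested genes, 6368 and 7246 had one. In limma 0 of the 8 passed in either comparison. Since this level leaned higher with both compounds, the fit moves a gene that falls as the level rises upward against DMSO. The part of the thalamus markers in the group differences was not tested beyond this fit.

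Pituitary transcripts were high on celastrol replicate 2, where Gh was 10.96 and Prl 9.80, against 6.30 to 7.98 and 5.19 to 6.08 on all other arrays. The mean of 8 pituitary markers was 8.03 on this array, 6.50 to 6.56 on the other celastrol arrays, 6.05 to 6.32 with DMSO and 6.24 to 6.56 with withaferin A. All 6 genes had their highest celastrol signal on this array. Without it the celastrol difference was 0.12 ± 0.10 for Drd2, 0.06 ± 0.095 for Ddc and 0.13 ± 0.47 for Slc6a3 (SE; 3 celastrol and 4 DMSO arrays; adjusted p = 0.8, 0.899 and 0.958 in limma). It was −0.00098 ± 0.14 for Slc18a2, −0.13 ± 0.15 for Th and −0.20 ± 0.097 for Hdc (adjusted p = 0.999, 0.848 and 0.545 in limma). The part of the pituitary signal in these values was not tested beyond the alternatives given.

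Markers of other cells that use the same genes were also read. All 6 measured markers of noradrenaline, adrenaline and serotonin neurons, which share Ddc and Slc18a2 with dopamine neurons, had a mean under 5.81; they were Dbh, Pnmt, Slc6a2, Tph1, Tph2 and Slc6a4, with means from 4.61 to 5.76. Of 8 mast cell markers, which bear on Hdc because mast cells also make histamine, 6 were under the limit; the others were Tpsb2, with group means from 5.95 to 6.04, and Kit, with 8.33 to 8.51, which neurons express too. The mast cell list averaged between 5.18 and 5.41 in the vehicle group, 5.25 and 5.37 after celastrol, and 5.38 and 5.43 after withaferin A. Striatum markers, which bear on Drd2 because striatal neurons express it, were all above the limit (6 of 6), with a list mean of 8.95 to 9.09 in the vehicle group, 9.08 to 9.15 after celastrol and 8.996 to 9.09 after withaferin A. For celastrol versus DMSO, 3 of the 6 had a positive difference (median 0.01), 0 passed in limma, and 2 did not overlap, against 7.21% of tested genes. These 2 were Ppp1r1b, at 0.30 ± 0.065 (SE, n = 4 per group; adjusted p = 0.0527 in limma), and Gpr6, at 0.54 ± 0.13 (0.0899). Drd1 had 0.03, while Penk had −0.09, Rgs9 −0.05 and Pde10a −0.0070. The part of these markers in the values of Drd2 and Hdc was not tested. No separate list of midbrain markers was read, and the part of midbrain tissue in the members' values was not tested.

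The 15 measured hypothalamus markers all passed the limit, with a list mean between 9.16 and 9.42 on every array. Only 2 of the 15 had a positive difference after celastrol (median −0.15), and 4 of the 15 after withaferin A (median −0.11). Of the 14953 tested genes, 6368 and 7246 had one. The groups did not overlap for 3 of the 15 after celastrol and 4 after withaferin A, against 7.21% and 7.6% of tested genes. Of the 15, 1 passed in limma after celastrol, against 0.769% of tested genes, and 0 after withaferin A, against 0%. The 1 was the oxytocin gene Oxt, which fell by 0.40 on the log2 scale (adjusted p = 0.0179 in limma). Pomc had the largest difference of the list after celastrol and rose, by 0.63 ± 0.25 (SE, n = 4 per group; adjusted p = 0.356 in limma), with no overlap. Its SD was 0.56 with celastrol and 0.076 with DMSO. The mean of the pituitary markers was also higher on all celastrol arrays (6.50 to 8.03) than on the DMSO arrays (6.05 to 6.32). The part of the pituitary signal in the Pomc difference was not tested. Of 6 oligodendrocyte markers, 1 had a positive difference after celastrol (median −0.18), and 4 did not overlap, against 7.21% of tested genes. Mobp, the 1 that rose, was among these 4, with means of 10.97 with DMSO and 11.28 with celastrol. Opalin, a myelin membrane protein gene, fell by 1.003 (adjusted p = 0.0229 in limma). It was the 1 marker of this list that passed, against 0.769% of tested genes. The part of either list in the members' values was not tested. General neuron markers averaged 11.96 to 12.08 on all arrays.

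Other genes of the dopamine and histamine pathways were taken from lists of 39 genes, of which 34 were measured and 25 tested. These totals include the noradrenaline, adrenaline and serotonin list above (7 listed, 6 measured and 0 tested), so that all 25 belong to the dopamine, histamine and prolactin feedback lists. In limma 0 of the 25 passed in any comparison, where 0.769%, 0% and 0.0468% of tested genes did. At an unadjusted p under 0.05 there were 2 after celastrol, 5 after withaferin A and 5 between the compounds, against 10.4%, 15.7% and 16.1% of tested genes. The groups did not overlap for 2, 2 and 0 of the 25, against 7.21%, 7.6% and 9.27%. Their median difference was −0.03 after celastrol and 0.01 after withaferin A, beside −0.02 and −0.0041 for all tested genes.

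Of the genes for the cofactor of tyrosine hydroxylase and for dopamine breakdown, 6 were tested. After celastrol the smallest p belonged to Qdpr, which regenerates tetrahydrobiopterin, at −0.15 ± 0.057 (SE, n = 4 per group; adjusted p = 0.35), and Maoa, a monoamine oxidase, at −0.15 ± 0.064 (0.417). Qdpr was 11.12, 11.14, 11.01 and 11.09 with DMSO and 10.94, 10.97, 10.86 and 10.9985 with celastrol, so that these groups did not overlap. After withaferin A, Pcbd1, which recycles the same cofactor, had −0.22 ± 0.064 (adjusted p = 0.173) and Maoa −0.21 ± 0.064 (0.192). Pcbd1 was 11.01, 10.91, 10.85 and 10.95 with DMSO and 10.76, 10.71, 10.66 and 10.70 with withaferin A, and these groups did not overlap either. Without DMSO replicate 3, Maoa passed after withaferin A, at −0.27 ± 0.055 (adjusted p = 0.0474 in limma). Without that array 172 of all tested genes passed, against 0 with all 12 arrays. Maoa was the only pathway gene with an adjusted p under 0.05 in the alternatives tried. Between the compounds Pcbd1 had −0.17 ± 0.064 (0.24) and Maob −0.12 ± 0.14 (0.692).

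Among the 4 other dopamine receptor genes, Drd4 had 0.29 ± 0.11 for withaferin A versus celastrol (SE, n = 4 per group; adjusted p = 0.232), 0.21 ± 0.11 versus DMSO (0.378) and −0.09 ± 0.11 for celastrol versus DMSO (0.858). Drd1 had 0.16 ± 0.090 for withaferin A versus DMSO (0.389) and 0.14 ± 0.090 between the compounds (0.464), and Drd3 had −0.03 ± 0.087 after celastrol (0.935). Of 7 tested transcription factor genes of dopamine neurons, Pitx3, which midbrain dopamine neurons need, had 0.41 ± 0.11 for withaferin A versus DMSO (adjusted p = 0.163). Pitx3 was 6.69, 6.75, 6.94 and 6.77 with DMSO, 7.06, 6.79, 7.12 and 6.60 with celastrol, and 7.35, 7.11, 7.07 and 7.25 with withaferin A. Every withaferin A array thus lay above every DMSO array. Pitx3 had 0.30 ± 0.11 between the compounds (0.214) and 0.11 ± 0.11 after celastrol (0.802). En2 had 0.04 ± 0.10 after withaferin A (0.875), and Lmx1b −0.10 ± 0.092 after celastrol (0.789) and 0.12 ± 0.092 between the compounds (0.534).

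Of the histamine genes beyond Hdc, 5 were tested. Hrh3, the presynaptic receptor that limits histamine release, had 0.23 ± 0.12 after celastrol (SE, n = 4 per group; adjusted p = 0.55), and Hrh1 −0.10 ± 0.049 (0.492). Hrh1 was 8.52, 8.44, 8.43 and 8.40 with DMSO and 8.36, 8.37, 8.33 and 8.32 with celastrol, with no overlap. After withaferin A, Hrh2 had 0.15 ± 0.058 (0.261) and Hnmt, which inactivates histamine by methylation, −0.16 ± 0.10 (0.456). Between the compounds Hrh2 had 0.15 ± 0.058 (0.249) and Slc29a4, a monoamine transporter gene, 0.14 ± 0.084 (0.413).

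The prolactin feedback genes, through which prolactin acts on dopamine neurons, were represented by Stat5a, Stat5b and Cish. Stat5a, a transcription factor activated by the prolactin receptor, had 0.18 ± 0.075 for withaferin A versus DMSO (SE, n = 4 per group; adjusted p = 0.273) and 0.19 ± 0.075 between the compounds (0.255). Stat5b had −0.04 ± 0.063 after celastrol (0.882), −0.06 ± 0.063 after withaferin A (0.678) and −0.02 ± 0.063 between the compounds (0.917). Cish, a target of this pathway that restrains it, had 0.07 ± 0.092 after celastrol (0.869).

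**Figure D5:**
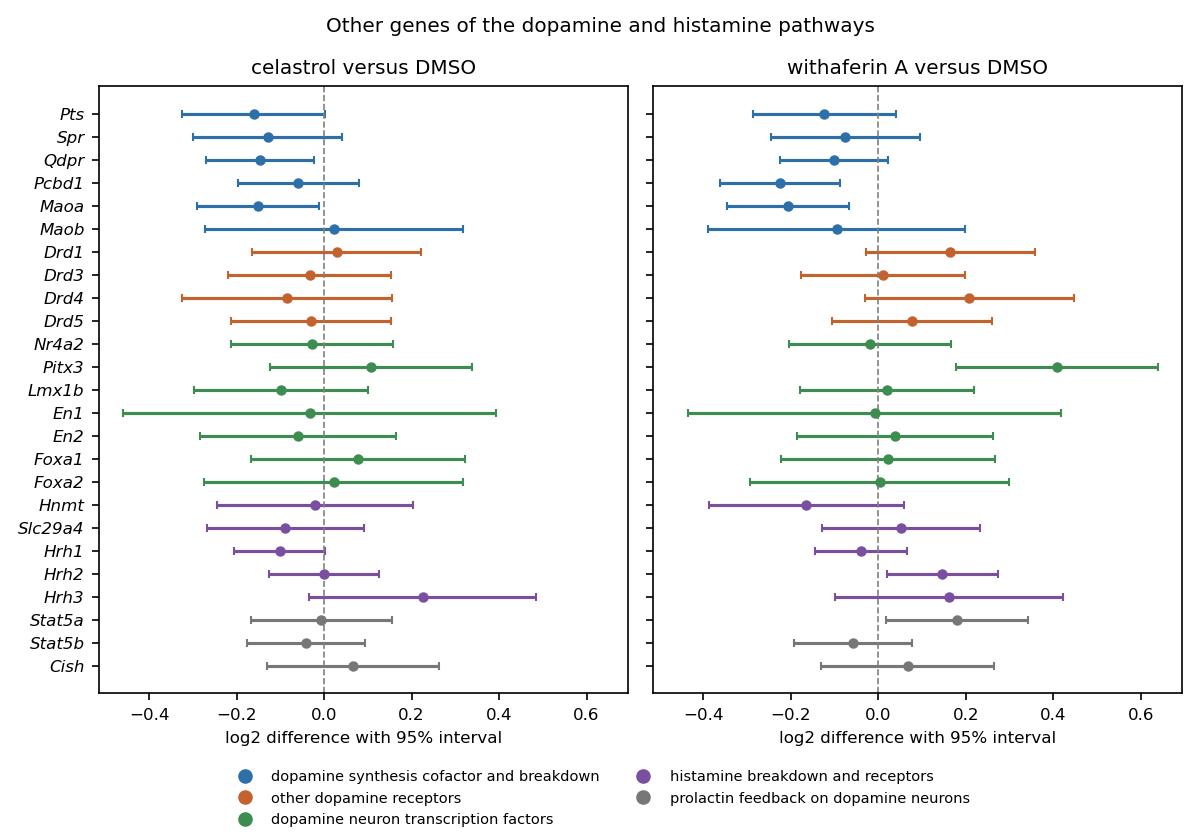
Log2 differences (horizontal axis) with 95% intervals from limma for the 25 tested pathway genes after celastrol (left) and withaferin A (right), each against DMSO with 4 arrays per group; colours mark the lists. Pitx3 after withaferin A, at 0.41, lies farthest from 0, and 0 of the 25 passed the adjusted threshold.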

How the data were processed

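Biotin-labelled cDNA from total hypothalamic RNA was hybridised to 12 one-colour Affymetrix arrays. The authors processed the signals with RMA, per the submitters' processing notes, so the deposited values are log2 signals on a common scale; its version is not given in the sources used here. Probe sets were named through the platform's annotation: of 35556, 21789 had 1 symbol and were used, 1621 had several and 12146 none. Per gene the probe set with the highest mean was taken, and genes whose mean lay under the array-wide 25th percentile (5.81) were not tested. Group means were fitted with limma 3.58.1 in R 4.3.3 (lmFit and eBayes on all 12 arrays, 9 residual and 4.44 prior degrees of freedom), with two-sided tests and Benjamini-Hochberg adjustment over 14953 genes. The p-values of limma set each difference against the spread between arrays, which need not be the spread between mice. The number of arrays limits the precision. Correlations used permutation tests (numpy 2.4.6), and plots matplotlib 3.10.9. Steps were tested on simulated data.

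The 6 genes and the lists were chosen with earlier results of these data known. Named pathway genes were, per list and comparison, those called or otherwise up to 2 with the smallest p; the 3 genes most like each member were named too. Promoter sequences are RefSeq's (GRCm38.p6). Alternatives concerned the filter, probe set, normalization, variance model, array weights, arrays fitted, replicate block, marker covariates and single arrays left out.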

Additional observations from a re-analysis of the deposited data

Results flagged for a closer look

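Of 72 groups of 4 arrays (24 genes in 3 groups), 5 held an array whose gap to its nearest neighbour exceeded Dixon's 95% critical value; chance gives about 5% of groups, and 0 of the 5 concerned Th, Ddc, Slc18a2, Slc6a3, Drd2 or Hdc. Hnmt was lowest on celastrol replicate 4, at 7.02, against 7.39 to 7.46 on the other celastrol arrays. Hrh2 was highest on DMSO replicate 4, at 7.76, against 7.62 to 7.63, and on celastrol replicate 1, at 7.74, against 7.63 on each of the others. Slc29a4 was highest on withaferin A replicate 2, at 9.34, against 9.07 to 9.11. Stat5b was highest on DMSO replicate 3, at 9.01, against 8.90 to 8.91.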

How the results depend on the processing

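The count of 0 called among the 6 genes held in all 22 alternatives of each comparison, and the lowest adjusted p of a member in any of them was 0.133. The count of pathway genes with an adjusted p under 0.05 was 0 throughout, except for 1 without DMSO replicate 3 in withaferin A versus DMSO. That count leaves out the exact permutation test, which gave unadjusted p and was run only on the named pathway genes. Over all genes the calls ran from 0 to 219 for celastrol versus DMSO (115 in the fit reported; 12 to 67 without celastrol replicate 1, 2 or 3, and 6 to 62 without any 1 DMSO array), from 0 to 172 for withaferin A versus DMSO (0; 172 without DMSO replicate 3) and from 0 to 56 between the compounds (7; 56 without withaferin A replicate 1). For celastrol versus DMSO the calls were 0 with the pituitary covariate, alone or with the thalamus covariate, and 5 with every probe set. Oxt and Opalin therefore did not pass in the fits with the pituitary covariate. The exact permutation test gave Qdpr and Hrh1 after celastrol and Pcbd1 and Pitx3 after withaferin A an unadjusted p of 0.0286, the smallest it can give. With a replicate block, 0 members and 0 pathway genes were called in each comparison, and 54 of all genes after celastrol. Same-numbered arrays had deviations correlated from −0.28 to 0.12, and in 2 of 24 checks an array was most like its own number. The labels do not say whether same-numbered arrays belong together, and these checks cannot exclude a weak link between them.

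Of 1044 values of named genes under an alternative, 37 changed sign, and the cause was not tested. With the pituitary covariate these were Slc6a3 (−0.064), Slc18a2 (−0.031) and Drd3 (0.023) after celastrol, and Hdc (0.081), Drd2 (0.024) and Stat5b (0.035) between the compounds. With the thalamus covariate they were Th after celastrol (0.043) and Ddc after withaferin A (0.016). With both covariates they were Th (0.021), Drd3 (0.030) and Lmx1b (0.0080) after celastrol, and Hdc (0.040) and Stat5b (0.034) between the compounds. With renewed quantile normalization they were Hdc (0.0088), Drd2 (0.022) and Stat5b (0.0056) between the compounds and En2 after withaferin A (−0.040), which was −0.0065 with median centring. With 1 array left out, values after celastrol ran from −0.16 to 0.015 for Th, −0.072 to 0.13 for Slc18a2, −0.20 to 0.61 for Slc6a3, −0.12 to 0.011 for Drd3 and −0.0080 to 0.13 for Cish. After withaferin A they ran from −0.13 to 0.025 for Ddc and −0.0018 to 0.12 for En2, and between the compounds from −0.084 to 0.062 for Drd2, −0.11 to 0.053 for Hdc and −0.052 to 0.016 for Stat5b.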
